A study of Azumapecten farreri with 9 samples.

Results

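Myosins are motor proteins that pull on actin filaments, and a muscle-type contractile apparatus adds the proteins that regulate, brace and fuel them. The genes described here are those whose description in the deposited gene table contains myosin (tropomyosin and paramyosin included), troponin, calponin, twitchin, arginine kinase or the word titin, with case ignored. The rule used names only, and it found 92 of the table's 21617 genes. RNA of hemocytes, the circulating immune cells of molluscs, had been sequenced in the Zhikong scallop after injection of exosomes (small vesicles released by cells) or of buffer, to ask how exosomes modulate immunity. There were 9 poly(A) libraries, 3 in each of 3 groups: libraries titled LPS_T, libraries titled NOR_T, and libraries titled PBS, from scallops given phosphate-buffered saline. For the exosome libraries, title and group label disagree: LPS_T libraries are labelled as normal exosomes and NOR_T libraries as exosomes of LPS stimulation (lipopolysaccharide, from bacterial walls). The titles name the groups below, and no direction is given to LPS stimulation. Strain, age, dose and time after injection are not in the labels used here, and they do not say whether a group's 3 libraries are separate animals. The p-values here thus reflect how far these libraries vary, part of which may be technical.

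A conventional (class II) myosin is built of a pair of heavy chains, which carry the motor, and of essential and regulatory light chains bound to their necks. In scallop muscle, calcium switches contraction on through the light chains of myosin itself, while tropomyosin and the troponins lie on the thin filament, and paramyosin fills the core of the thick filament. Unconventional myosins work singly or in small numbers on membranes and cargo in most animal cells. Circulating hemocytes are not muscle, but they crawl, spread and engulf particles with actin and non-muscle myosin.

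The estimated counts totalled 19894628 in the shallowest library, PBS 1, and 45831950 in the deepest, PBS 3. A count of 4 was far commoner than a count of 5 (624 to 763 genes against 75 to 109 in each library), so about 4 counts were taken as 1 fragment, a choice made after the values were seen. At that rate 3 fragments, the counting floor used below, correspond to 0.257 to 0.377 CPM in 8 libraries and 0.747 CPM in PBS 1. The PBS 1 library was unlike the rest: scaffold38697 took 17.8% of its counts, against 0.0318% to 0.0979% in the others, and 9865 genes reached an FPKM of 1 in it, against 10537 to 11341. CPM means counts scaled to a common library size with TMM factors and is used to compare libraries; FPKM is the authors' value per gene length and is used to compare genes. FPKM is not TMM scaled, and PBS 1 had a TMM factor of 0.81, against 0.99 to 1.07 in the others. Hemocyte markers were present, led by a laccase-3-like phenol oxidase (evm.TU.scaffold63699.20) at a mean of 660 FPKM over the 9 libraries. Its means were 1671 CPM in LPS_T, 2227 in NOR_T and 3042 in PBS. Summed levels of 56 hemocyte-list genes were 4024 to 4121 CPM in LPS_T, 4486 to 4700 in NOR_T and 5083 to 5441 in PBS, with 10 to 26 of them at 0 in each library. The fall was that of the laccase, since the other 55 genes summed to 2384 to 2435 CPM in LPS_T and 2312 to 2442 in NOR_T, against 2168 to 2259 in PBS. Of the 18 tested, 2 were higher and 2 lower in LPS_T than in PBS, 3 higher and 2 lower in NOR_T than in PBS, and 0 higher and 2 lower in LPS_T than in NOR_T. Of all tested genes, 33%, 24.9% and 21.5% differed in those comparisons, in either direction. The part of these markers in the member results was not tested.

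The 92 members spanned a wide range of levels. Mean FPKM over the 9 libraries was at least 100 in 15 members and under 1 in 40. The 15 members with the highest levels held 85.6% to 88.2% of all counts on members. Together the members took 1.75% to 1.82% of counts in LPS_T libraries, 1.79% to 1.88% in NOR_T and 1.29% to 1.67% in PBS, where the lowest share was that of PBS 1. A count in every library was found for 69 members. A gene was tested if its FPKM reached 1 in 3 or more libraries, which kept 53 members, and 39 were not tested, with mean FPKM of 0.0145 to 1.36. Of the tested members, 41 reached that FPKM in all 9 libraries and 2 did so in libraries of a single group, namely an arginine kinase (evm.TU.scaffold60199.9) in NOR_T and paramyosin-like isoform X3 (evm.TU.scaffold231.10) in LPS_T. Those 2 could pass the filter only where they were high, so their levels are given as a description and no test of them is read. They are among the calls counted below; without them the calls were 17 in LPS_T against PBS, 14 in NOR_T against PBS and 7 in LPS_T against NOR_T.

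**Figure D1:**
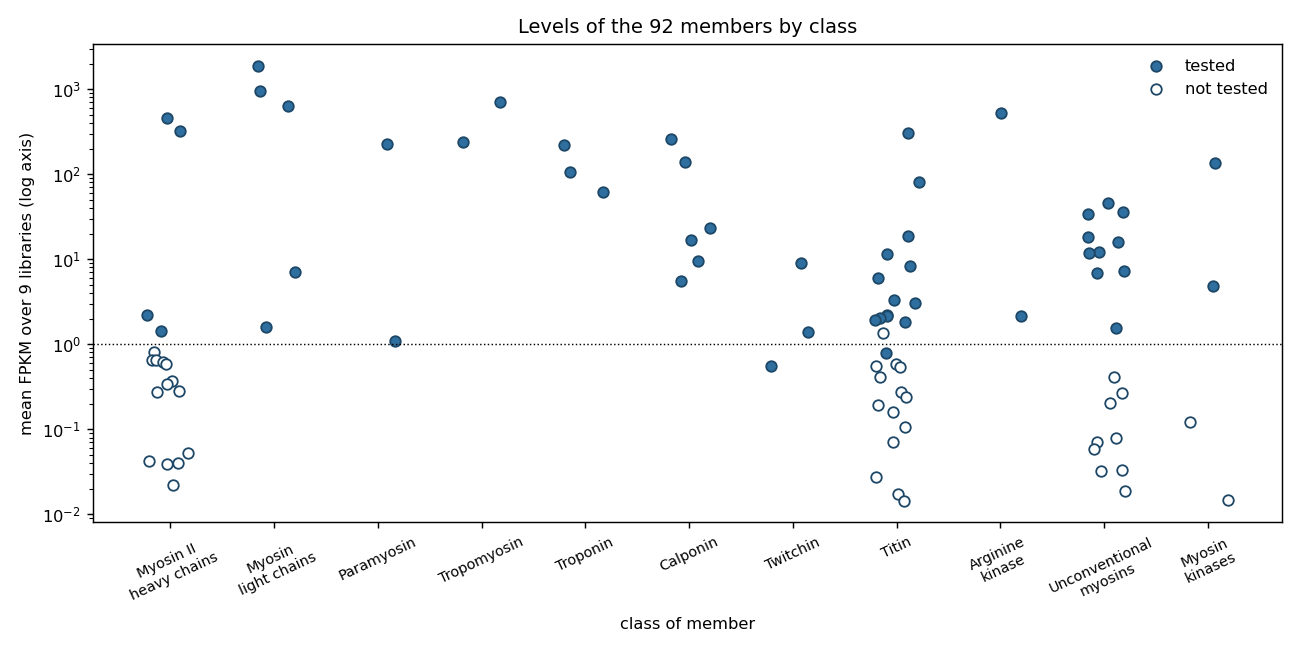
Each point is 1 of the 92 members, placed by its class (x axis) and its mean FPKM over the 9 libraries (y axis, log scale), filled where the member was tested; the dotted line is an FPKM of 1. Light chains, tropomyosins and troponins are all tested and mostly high, while 14 of 18 myosin II heavy chains lie under the line.

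The most abundant member was a myosin essential light chain (evm.TU.scaffold726951.1) with a mean of 1887 FPKM, which ranked it 53 among all genes. The regulatory light chain of the striated adductor (evm.TU.scaffold37629.19), the muscle that closes the shell, stood at 944 FPKM and the smooth muscle minor isoform (evm.TU.scaffold19717.3) at 630 FPKM. Only 2 of 18 class II heavy chains were abundant: the non-muscle-like isoform X5 (evm.TU.scaffold34531.50, scaffold34531, positions 1184231 to 1243675, minus strand) at 461 FPKM and the striated muscle heavy chain (evm.TU.scaffold341.8, scaffold341, positions 220004 to 246253, plus strand) at 318 FPKM. Tropomyosin isoform X9 (evm.TU.scaffold36677.6), which winds along actin filaments, stood at 706 FPKM and arginine kinase (evm.TU.scaffold43873.29), which stores high-energy phosphate in molluscs, at 523 FPKM. Muscle-named transcripts were thus among the abundant RNAs of these hemocyte libraries. A list of other muscle proteins also held high genes. The highest was alpha-actinin-like isoform X1 (evm.TU.scaffold41779.38), an actin crosslinker that non-muscle cells use as well, at a mean of 591 FPKM. In bulk RNA, fewer cells of a type and less RNA per cell cannot be told apart, and the cells that these transcripts came from were not identified here.

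Described first are the striated heavy chain, the striated adductor regulatory light chain, the essential light chain and paramyosin. The name of the essential light chain gives no muscle type. The smooth muscle minor regulatory light chain, also named for muscle, is described below with the non-muscle heavy chain. The striated heavy chain had 2116, 2142 and 1833 CPM in LPS_T libraries and 1955, 2033 and 1835 CPM in NOR_T libraries, against 2208, 2029 and 1869 CPM in PBS libraries. The ranges of the 3 groups overlapped. Changes are given on the log2 scale throughout, as LPS_T or NOR_T over PBS, and between the exosome groups as LPS_T over NOR_T. The log2 change of the striated heavy chain was -0.0035 (SE 0.075) in LPS_T against PBS and -0.068 (SE 0.075) in NOR_T against PBS, with adjusted p-values of 0.977 and 0.558 in edgeR's quasi-likelihood test. The striated adductor regulatory light chain had 644.8, 673.4 and 611.7 CPM in LPS_T and 667, 691.5 and 634.2 CPM in NOR_T, against 625, 658.1 and 588.6 CPM in PBS. The essential light chain had 982.9, 959.1 and 877.5 CPM in LPS_T and 1001, 976.5 and 943.1 CPM in NOR_T, against 1047, 1074 and 918.2 CPM in PBS. Neither light chain passed the test in any comparison, with adjusted p-values of at least 0.225. The striated heavy chain and the striated adductor regulatory light chain were named after their values were seen.

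Paramyosin-like isoform X1 (evm.TU.scaffold59679.8) had 725.4, 708.6 and 612.6 CPM in LPS_T and 673.5, 698.3 and 652.9 CPM in NOR_T, against 591, 648.1 and 614 CPM in PBS. The NOR_T libraries all lay above the PBS libraries, and the LPS_T range overlapped PBS. Its changes were 0.14 (SE 0.06) in LPS_T and 0.13 (SE 0.06) in NOR_T, and neither passed the test (adjusted p = 0.0922 and 0.158), but without LPS_T 3 the first was 0.21 with an adjusted p of 0.0125. The second paramyosin member, isoform X3, was scarce, with 3.564, 4.302 and 4.721 CPM in LPS_T and 1.696, 2.102 and 1.755 CPM in NOR_T, against 3.176, 2.071 and 1.283 CPM in PBS. All LPS_T libraries were above the others.

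On the thin filament, all 3 troponins were tested and none passed in any of the 4 comparisons. Troponin T (evm.TU.scaffold56167.8), which anchors the complex to tropomyosin, had 463.3, 440.2 and 415.9 CPM in LPS_T and 445.1, 499.7 and 472.2 CPM in NOR_T, against 443.6, 505 and 433.8 CPM in PBS. Troponin I (evm.TU.scaffold64639.13), the inhibitory subunit, had 481.4, 435.7 and 418 CPM in LPS_T and 475.2, 495.8 and 458.7 CPM in NOR_T, against 446.1, 494.8 and 419 CPM in PBS. The calcium-binding troponin C (evm.TU.scaffold46797.21) had 111.9, 112.7 and 91.04 CPM in LPS_T and 113, 114.6 and 103.1 CPM in NOR_T, against 95.21, 111.8 and 102.1 CPM in PBS. Groups overlapped for every subunit. Changes against PBS ran between -0.068 and 0.095 with SEs of 0.065 to 0.088, the smallest adjusted p of any troponin was 0.308, and 0 of 3 passed at an unadjusted p under 0.05 or in DESeq2 or limma. Per gene length, troponin T stood at 1.93 to 2.13 times troponin I in the 9 libraries, a ratio computed after the values were seen.

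Both tropomyosin genes lie on scaffold36677, 1600 bases apart on the plus strand. Isoform X9 had 1721, 1686 and 1635 CPM in LPS_T and 1998, 1997 and 1952 CPM in NOR_T, against 1600, 1625 and 1578 CPM in PBS. The NOR_T libraries stood above all others. It rose by 0.31 (SE 0.05, adjusted p = 0.000396) in NOR_T, while the change in LPS_T was 0.070 (SE 0.05, adjusted p = 0.331). Its neighbour (evm.TU.scaffold36677.5, 239 FPKM) had 200.6, 204.5 and 186.1 CPM in LPS_T and 218.5, 213.8 and 199.7 CPM in NOR_T, against 182.3, 200.9 and 187.4 CPM in PBS, and passed no test (adjusted p of at least 0.0967). How reads were split between these neighbouring copies is uncertain, as it is for calponins, titins and other close relatives here.

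**Figure D2:**
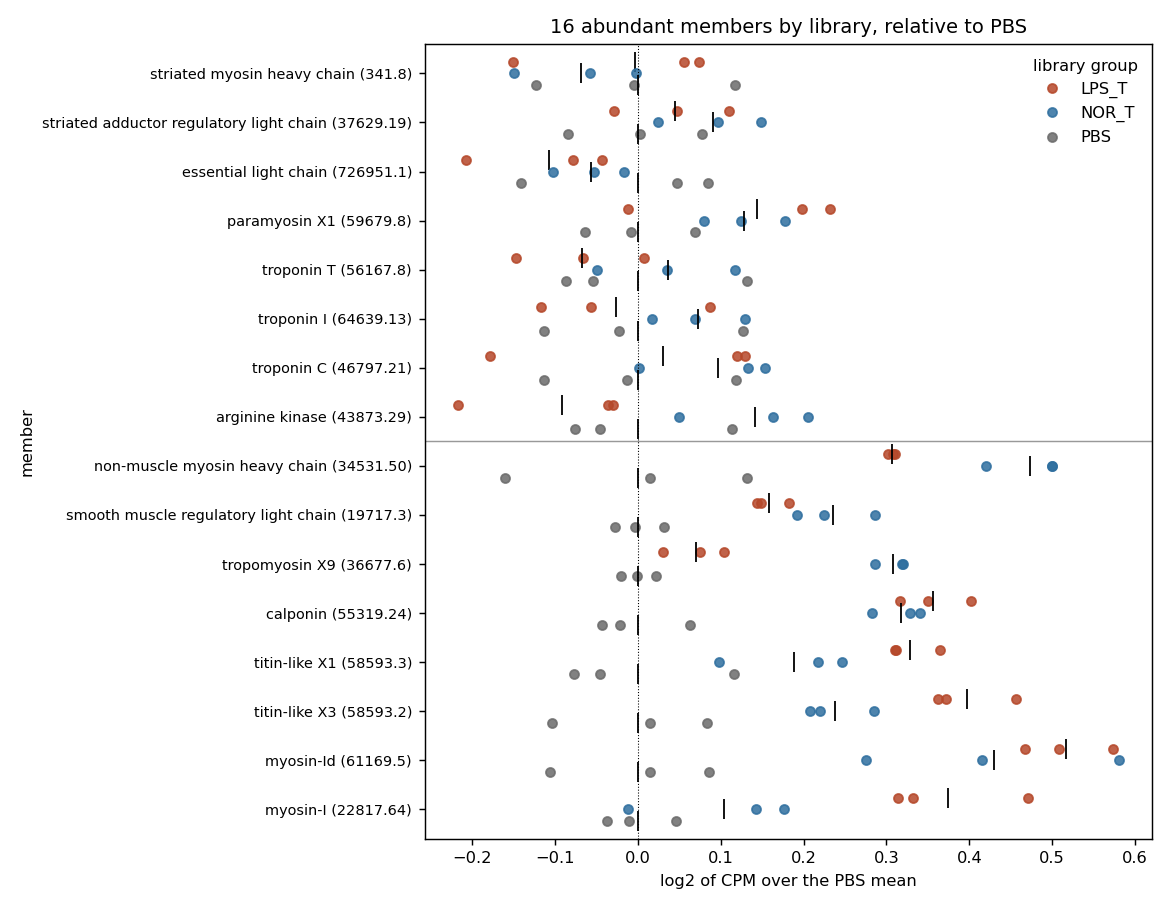
Each point is 1 library (LPS_T, NOR_T or PBS), placed by the log2 of its CPM over the PBS mean (x axis) for 16 abundant members (y axis) picked after their values were seen; ticks are group means. The blocks were also set after the values were seen, so the contrast between them is no result. Tropomyosin X9, a thin filament member, and the smooth muscle regulatory light chain are in the lower block, and the neighbouring tropomyosin is not drawn. In the upper block, of other thick and thin filament members and arginine kinase, the groups overlap in most rows. In the lower block the PBS points lie left of most exosome points.

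Of the 53 tested members, 18 passed in LPS_T against PBS at an adjusted p under 0.05, where 33% of all tested genes did, and 15 of the 18 were higher in LPS_T. In NOR_T against PBS 15 members passed, where 24.9% of all tested genes did, and 12 of the 15 were higher in NOR_T. The members' shares called are near those backgrounds and are no result about the members as a set. CPM ranges did not overlap for 26 members in LPS_T against PBS and 23 in NOR_T against PBS, beside 45.4% and 38.3% of all tested genes. Among all tested genes, 17.9% were called higher and 15.2% lower in LPS_T, and 11.4% higher and 13.5% lower in NOR_T. The median log2 change of tested members was 0.14 in LPS_T and 0.10 in NOR_T, beside 0.027 and -0.0021 over all tested genes. Called changes were small: 1 of 18 in LPS_T and 2 of 15 in NOR_T exceeded 1 on the log2 scale in size. The split depends on scaling, with 11 higher and 0 lower in LPS_T by limma on unscaled log2(FPKM + 1), and 10 higher and 1 lower in NOR_T with library size only. It depends on the filter too, and was less one-sided with more members in the fit. With no filter on low values (92 members) it was 19 higher and 7 lower in LPS_T, and 14 higher and 7 lower in NOR_T. With edgeR's filterByExpr (81 members) it was 17 higher and 4 lower in LPS_T, and 13 higher and 6 lower in NOR_T. Of the members named by rule, those whose call was lost in limma on log2(FPKM + 1) were, in LPS_T, the non-muscle heavy chain, myosin light chain kinase 2 and titin-like evm.TU.scaffold59337.6, and in NOR_T the calponin evm.TU.scaffold55319.24 and the titin-like genes evm.TU.scaffold22483.19, evm.TU.scaffold58593.2, evm.TU.scaffold58593.3 and evm.TU.scaffold59337.6 (adjusted p = 0.0532 to 0.147). With library size only the LPS_T calls of the kinase (adjusted p = 0.0697) and of evm.TU.scaffold59337.6 (adjusted p = 0.0522) were lost too. Both comparisons share the PBS libraries, so their values are set side by side and their likeness is not counted as a result. Without PBS 1 the counts were 13 higher and 4 lower in LPS_T and 12 higher and 3 lower in NOR_T.

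**Figure D3:**
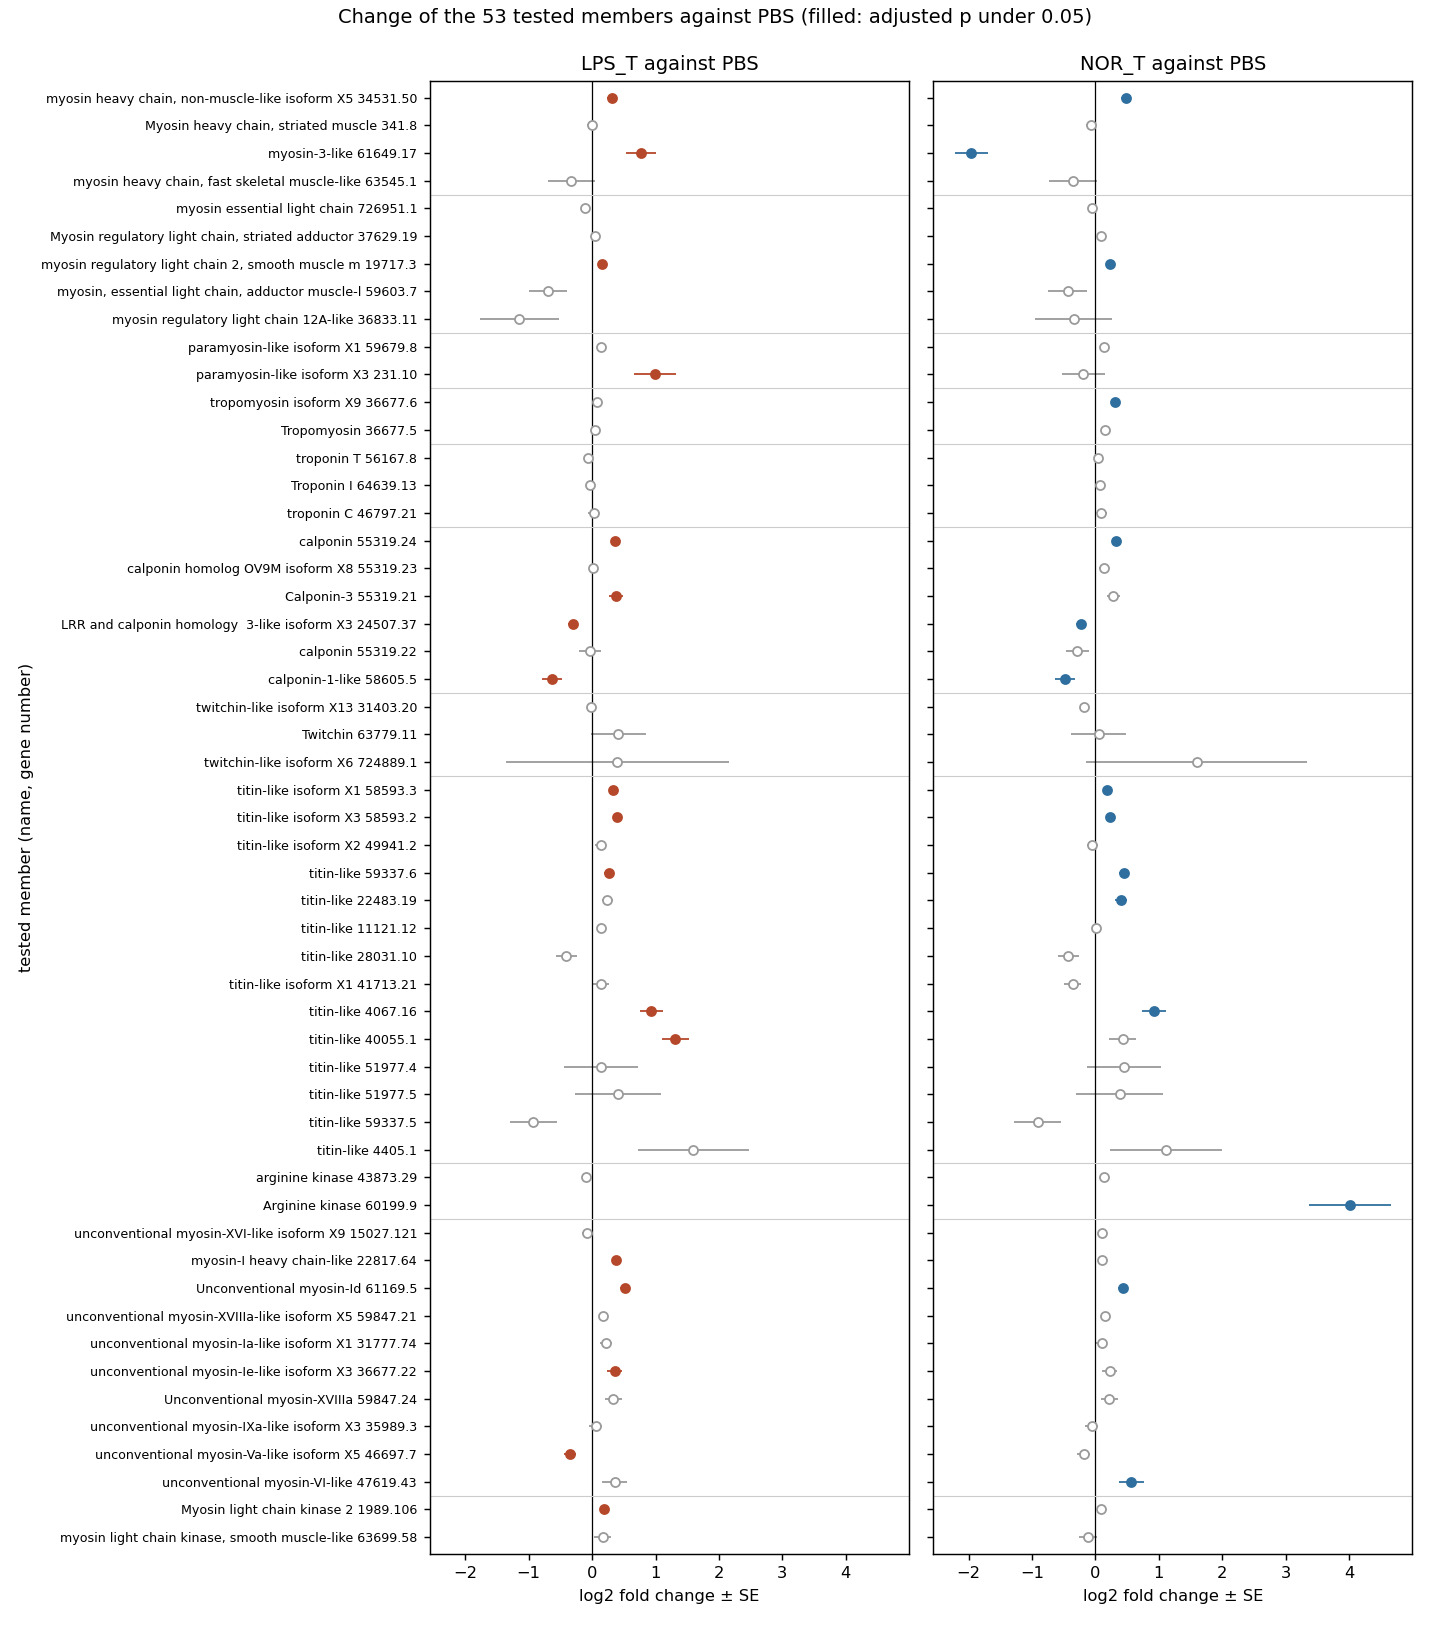
Points are log2 fold changes (x axis) with SE bars of the 53 tested members (y axis, grouped by class). The left panel is LPS_T against PBS and the right panel NOR_T against PBS, filled where the adjusted p was under 0.05. The arginine kinase on scaffold60199 is left out of the left panel because both groups stayed at or under 0.626 CPM. The filled points of that kinase and of paramyosin-like isoform X3 are members that passed the filter in 1 group only. Most filled points lie between -0.7 and 1.4, with myosin-3-like and that arginine kinase as the wide exceptions on the right.

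The non-muscle heavy chain, the motor of cortical contraction in cells outside muscle, was higher in both exosome groups. It had 2920, 2915 and 2903 CPM in LPS_T and 3331, 3152 and 3329 CPM in NOR_T, against 2106, 2380 and 2579 CPM in PBS, so that the groups did not overlap. The rise was 0.31 (SE 0.07, adjusted p = 0.00257) in LPS_T and 0.47 (SE 0.07, adjusted p = 0.000109) in NOR_T. In limma on log2(FPKM + 1) the LPS_T change was 0.49 and missed the threshold with an adjusted p of 0.055. The smooth muscle minor regulatory light chain, named after its values were seen, had 2220, 2162 and 2169 CPM in LPS_T and 2234, 2386 and 2287 CPM in NOR_T, against 1999, 1919 and 1952 CPM in PBS. It rose by 0.16 (SE 0.05, adjusted p = 0.0318) in LPS_T and 0.23 (SE 0.05, adjusted p = 0.00417) in NOR_T, with all PBS libraries below both groups. Its LPS_T call was lost without LPS_T 1, LPS_T 2, LPS_T 3, NOR_T 3, PBS 2 or PBS 3, with changes of 0.13 to 0.17. Its NOR_T call was lost in limma on log2(FPKM + 1). Set over the striated heavy chain per gene length, the non-muscle heavy chain stood at 1.37 to 1.59 times in LPS_T, 1.56 to 1.83 in NOR_T and 0.96 to 1.39 in PBS, a ratio computed after the values were seen. The other 2 light chains were scarce and passed no test.

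Calponins bind actin and tropomyosin and are best known from smooth muscle. The most abundant (evm.TU.scaffold55319.24, 261 FPKM, scaffold55319, positions 618207 to 639715) had 592.9, 572 and 558.6 CPM in LPS_T and 563.2, 568.2 and 545.7 CPM in NOR_T, against 442.1, 468.5 and 435.3 CPM in PBS. PBS lay below both groups without overlap, and the gene rose by 0.36 (SE 0.05, adjusted p = 3.35e-05) in LPS_T and 0.32 (SE 0.05, adjusted p = 0.000171) in NOR_T. It is the last of 4 adjacent calponin genes on the minus strand. Calponin-3 (evm.TU.scaffold55319.21) rose by 0.38 (adjusted p = 0.0128) in LPS_T, with a change of 0.28 (adjusted p = 0.0682) in NOR_T, and the other 2 of the cluster passed neither test. The Calponin-3 call was lost without LPS_T 1 (0.31) or PBS 3 (0.32). Both calponin members elsewhere fell. Calponin-1-like (evm.TU.scaffold58605.5) had 7.504, 6.666 and 6.875 CPM in LPS_T and 7.069, 9.068 and 7.291 CPM in NOR_T, against 11.21, 11.2 and 10.31 CPM in PBS, with changes of -0.63 (adjusted p = 0.00585) and -0.48 (adjusted p = 0.0362). A protein with leucine-rich repeats and a calponin homology domain (evm.TU.scaffold24507.37) changed by -0.30 (adjusted p = 0.00719) in LPS_T and -0.23 (adjusted p = 0.0416) in NOR_T. The NOR_T call of calponin-1-like was lost without NOR_T 1, NOR_T 3 or any PBS library (-0.52 to -0.41), and that of the leucine-rich repeat protein without any single library but NOR_T 3 and PBS 1 (-0.24 to -0.17). These 3 members besides the most abundant calponin were named after their values were seen. In limma on log2(FPKM + 1) both falls outside the cluster lost their calls, in LPS_T and in NOR_T. With library size only, 1 member was called lower in each of these comparisons, so at most 1 of these falls kept its call in each.

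Titin is the giant spring of the vertebrate sarcomere. What the scallop genes so named do in hemocytes was not tested. Of 28 titin members 14 were tested; 5 rose and 0 fell in LPS_T, and 5 rose and 0 fell in NOR_T, beside 33% and 24.9% of all tested genes called in either direction. The most abundant, titin-like isoform X1 (evm.TU.scaffold58593.3, 308 FPKM), had 1123, 1081 and 1083 CPM in LPS_T and 933.3, 1035 and 1014 CPM in NOR_T, against 944.9, 826.7 and 844.4 CPM in PBS. LPS_T stood above both other groups, with a rise of 0.33 (SE 0.06, adjusted p = 0.000619), while NOR_T overlapped PBS, with a rise of 0.19 (SE 0.06, adjusted p = 0.0327). The NOR_T call was lost when NOR_T 2 (0.16), NOR_T 3 (0.17), PBS 2 (0.15) or PBS 3 (0.17) was left out, and under the replicate block its adjusted p was 0.0501. Its neighbour, isoform X3 (evm.TU.scaffold58593.2), had 382.7, 358.5 and 360.8 CPM in LPS_T and 324.8, 322 and 339.6 CPM in NOR_T, against 259.4, 281.7 and 295.4 CPM in PBS. Its groups were fully apart, and it rose by 0.40 (SE 0.06, adjusted p = 5.78e-05) in LPS_T and 0.24 (SE 0.06, adjusted p = 0.00596) in NOR_T. The NOR_T call was lost with library size only (0.31, adjusted p = 0.0717) and in limma on log2(FPKM + 1) (0.39, adjusted p = 0.147).

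The titin-like gene evm.TU.scaffold59337.6 had 67.23, 62.14 and 66.71 CPM in LPS_T and 76.19, 74.52 and 71.88 CPM in NOR_T, against 51.19, 54.53 and 57.65 CPM in PBS. All 3 groups were apart, and the rises were 0.26 (adjusted p = 0.0145) in LPS_T and 0.44 (adjusted p = 0.000466) in NOR_T. The first was lost without LPS_T 1 (0.24), LPS_T 3 (0.24) or PBS 1 (0.20). Among the scarcer titins, evm.TU.scaffold4067.16 had 10.39, 9.927 and 10.38 CPM in LPS_T and 8.12, 10.04 and 12.31 CPM in NOR_T, against 4.359, 6.069 and 5.453 CPM in PBS, and rose by 0.93 (adjusted p = 0.00102) and 0.92 (adjusted p = 0.00165). Every exosome library lay above every PBS library for that gene. The titin-like gene evm.TU.scaffold22483.19 had 55.41, 60.63 and 62.08 CPM in LPS_T and 59.16, 72.73 and 67.48 CPM in NOR_T, against 46.27, 52.38 and 51.83 CPM in PBS. It rose by 0.40 (adjusted p = 0.0042) in NOR_T, with a change of 0.24 (adjusted p = 0.0549) in LPS_T, and both groups lay above PBS.

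The remaining titins above the filter passed neither comparison with PBS, apart from evm.TU.scaffold40055.1, described with the differences between the exosome groups. The titin-like gene evm.TU.scaffold11121.12 averaged 150 ± 0.698 CPM in LPS_T and 137 ± 3.66 in NOR_T, against 137 ± 6.64 in PBS (SD, n = 3 each), and evm.TU.scaffold49941.2 had 88.31 to 102.9 CPM in LPS_T and 84.62 to 86.01 in NOR_T, against 79.29 to 99.14 in PBS. The genes evm.TU.scaffold51977.4, evm.TU.scaffold51977.5 and evm.TU.scaffold4405.1 stayed at or under 2.008 CPM in every library. On scaffold59337 the PBS 1 library stood apart. The gene evm.TU.scaffold59337.5 had 10.58, 11.11 and 21.08 CPM in LPS_T and 18.87, 11.83 and 12.39 CPM in NOR_T, against 51, 16.09 and 16.25 CPM in PBS. The untested titin-like gene beside it, evm.TU.scaffold59337.4, had 174 CPM in PBS 1 and at most 9.49 CPM in any other library. Twitchin, a giant kinase that controls the catch state of molluscan smooth muscle, was represented by isoform X13 (evm.TU.scaffold31403.20), with 143.4, 144.8 and 134.1 CPM in LPS_T and 129.5, 129.9 and 118.4 CPM in NOR_T, against 135, 151.3 and 142 CPM in PBS. All NOR_T libraries were below PBS, by a change of -0.18 (SE 0.07) that missed the threshold (adjusted p = 0.0544), and the change in LPS_T was -0.022 (adjusted p = 0.833). Of 3 twitchins, edgeR called 0 in any comparison, with 1 at an unadjusted p under 0.05 in NOR_T against PBS and 1 in LPS_T against NOR_T; DESeq2 called 1 lower in NOR_T, as edgeR did without PBS 1. Twitchin evm.TU.scaffold63779.11 had 0.8718 to 1.82 CPM in all libraries and passed no test, and evm.TU.scaffold724889.1 had no count in 5 of them.

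Unconventional myosins had mean FPKM of 0.0186 to 45.4, with 9 of 19 under 1, and 10 of 19 were tested. In LPS_T 3 rose and 1 fell, and in NOR_T 2 rose and 0 fell, beside the same 33% and 24.9% of all tested genes. Myosin-Id (evm.TU.scaffold61169.5), a class I myosin that links membranes to actin, had 110.7, 113.9 and 119.1 CPM in LPS_T and 96.89, 106.8 and 119.8 CPM in NOR_T, against 84.94, 74.35 and 80.87 CPM in PBS. It rose by 0.52 (SE 0.08, adjusted p = 0.000136) in LPS_T and 0.43 (SE 0.08, adjusted p = 0.00103) in NOR_T, with PBS below every exosome library. Myosin-Ie-like (evm.TU.scaffold36677.22) rose by 0.35 (adjusted p = 0.0275) in LPS_T, and myosin-VI-like (evm.TU.scaffold47619.43), which walks toward the pointed end of actin, rose by 0.56 (adjusted p = 0.046) in NOR_T. Myosin-Va-like (evm.TU.scaffold46697.7), a cargo carrier, fell by 0.35 on the log2 scale (adjusted p = 0.0125) in LPS_T; these 3 were named after their values were seen. The call of myosin-Ie-like was lost without LPS_T 1, LPS_T 3, NOR_T 3, PBS 2 or PBS 3 (0.28 to 0.38), that of myosin-VI-like without any single library but PBS 3 (0.43 to 0.64), and that of myosin-Va-like without LPS_T 1 (-0.31) or PBS 2 (-0.31). In limma on log2(FPKM + 1) the NOR_T call of myosin-VI-like and the LPS_T call of myosin-Va-like were lost. The myosin kinases phosphorylate the regulatory light chain. Myosin light chain kinase 2 (evm.TU.scaffold1989.106, 134 FPKM) had 369.7, 377.9 and 357 CPM in LPS_T and 350.4, 339.3 and 348.1 CPM in NOR_T, against 306.6, 336.3 and 332.4 CPM in PBS, where PBS was lowest without overlap. It rose by 0.18 (SE 0.05, adjusted p = 0.0141) in LPS_T, with a change of 0.089 (adjusted p = 0.241) in NOR_T. The call was lost without LPS_T 2 (0.16), NOR_T 3 (0.15) or PBS 1 (0.12).

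The mean of LPS_T and NOR_T against PBS does not depend on which of the contradicting labels is right. It called 21 members, 15 higher and 6 lower, where 29.5% of all tested genes were called, with a median member change of 0.13 beside 0.0043 over all tested genes. In that comparison 14.6% of all tested genes were higher and 15% lower, and the ranges did not overlap for 14 members, beside 22.1% of all tested genes. The smallest adjusted p-values were those of the calponin evm.TU.scaffold55319.24 (0.34, adjusted p = 1.86e-05), myosin-Id (0.48, adjusted p = 0.000117) and the non-muscle heavy chain (0.39, adjusted p = 0.000139). With library size only the split was 14 higher and 1 lower, with limma on log2(FPKM + 1) 12 higher and 0 lower, and without PBS 1 it was 14 higher and 2 lower. Other settings were less one-sided than the main fit. The split was 17 higher and 11 lower with no filter (92 members), and 13 higher and 6 lower without PBS 3. Among the 6 lower members was the titin-like gene evm.TU.scaffold59337.5 at -0.92 (adjusted p = 0.0377), which was at -0.18 without PBS 1; the call was also lost without LPS_T 1, LPS_T 2, NOR_T 2 or NOR_T 3 (-0.89 to -0.83). Another was the titin-like gene evm.TU.scaffold28031.10 with 12.15, 18.25 and 12.86 CPM in LPS_T and 12.73, 15.84 and 14.12 CPM in NOR_T, against 22.54, 17.58 and 17.66 CPM in PBS, a change of -0.42 (adjusted p = 0.0344). That call was lost without PBS 1 (-0.31), LPS_T 1, LPS_T 3, NOR_T 1 or NOR_T 3 (-0.43 to -0.37). Both titin calls were also lost with library size only (adjusted p = 0.0765 for the first and 0.127 for the second) and with edgeR's filterByExpr (0.0565 for the first and 0.0508 for the second). Myosin-3-like (evm.TU.scaffold61649.17) was among the 6 too, at -0.59, but that value averages opposite changes, 0.77 in LPS_T and -1.96 in NOR_T. Its call was lost without NOR_T 1, NOR_T 3, PBS 1, PBS 2 or any LPS_T library (-0.62 to -0.45).

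LPS_T and NOR_T were then compared with each other. Of 53 tested members 9 passed, where 21.5% of all tested genes did, 5 of them higher and 4 lower in LPS_T, beside 12.6% and 8.89% of all tested genes. The ranges did not overlap for 18 members, beside 38.8% of all tested genes. The median member change was 0.020, beside -0.0047 over all tested genes. With library size only the split was 4 higher and 1 lower, without the calls of myosin-I heavy chain-like, tropomyosin isoform X9, myosin-XVI-like and the abundant arginine kinase (adjusted p = 0.0939 to 0.411), and without PBS 1 it was 5 higher and 6 lower. Myosin-3-like (evm.TU.scaffold61649.17, scaffold61649, positions 374355 to 419225, plus strand), a conventional heavy chain by its name, differed most among the members not near the counting floor. It had 14.87, 16.17 and 15.61 CPM in LPS_T against 2.484, 3.263 and 1.323 CPM in NOR_T, while PBS had 10.03, 10.69 and 6.778 CPM. The groups were fully apart, in the order LPS_T, PBS, NOR_T. LPS_T was higher than NOR_T by 2.73 (SE 0.26, adjusted p = 1.15e-06); against PBS, LPS_T rose by 0.77 (SE 0.24, adjusted p = 0.0209) and NOR_T fell by 1.96 on the log2 scale (SE 0.26, adjusted p = 5.04e-05). The LPS_T call against PBS was lost without LPS_T 2 (0.74), LPS_T 3 (0.76) or PBS 3 (0.58).

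Markers of other cell types differed between the same groups. Of 73 tested genes of a ciliated epithelium list, 47 were higher and 0 lower in LPS_T than in NOR_T. Against PBS, 44 were higher and 2 lower in LPS_T, and 2 were higher and 35 lower in NOR_T. In those comparisons 21.5%, 33% and 24.9% of all tested genes were called in either direction. That background holds for the gonad markers below too. The summed level of the list's 88 genes was 1269 to 1323 CPM in LPS_T, 502 to 521 in NOR_T and 728 to 921 in PBS, with 5 to 11 of its genes at 0 in each library. Gonad and gamete markers, 31 tested, were higher in LPS_T than in NOR_T in 20 and lower in 2, against PBS higher in 12 and lower in 4 in LPS_T, and higher in 1 and lower in 16 in NOR_T. Their 33 genes summed to 1538 to 1690 CPM in LPS_T, 491 to 540 in NOR_T and 889 to 1053 in PBS, with 0 to 3 at 0. Most of each sum was a testis-specific tubulin alpha chain (evm.TU.scaffold64139.6), and the other 32 genes summed to 424 to 450 CPM in LPS_T and 213 to 234 in NOR_T, against 254 to 265 in PBS. The part of these markers in the member differences was not tested. The muscle list outside the rule summed to 4047 to 4389 CPM in LPS_T, 4285 to 4330 in NOR_T and 4049 to 4233 in PBS, ranges that overlap. Its highest gene was the alpha-actinin-like one (evm.TU.scaffold41779.38). The other 32 genes summed to 2301 to 2505 CPM in LPS_T and 2456 to 2545 in NOR_T, against 2522 to 2590 in PBS. For these, LPS_T lay below PBS, and NOR_T overlapped both other groups.

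Both arginine kinase genes stood lower in LPS_T than in NOR_T, and the scarce one passed the filter only through NOR_T. The abundant gene (evm.TU.scaffold43873.29) had 749.9, 746.6 and 658.4 CPM in LPS_T against 857.4, 882.7 and 792.2 CPM in NOR_T, while PBS had 726.5, 828.4 and 741.9 CPM. LPS_T lay below NOR_T without overlap, by -0.23 (SE 0.07, adjusted p = 0.0188), a call lost without LPS_T 3 (-0.19), NOR_T 1 (-0.22) or NOR_T 2 (-0.20). Neither group passed against PBS (adjusted p = 0.321 in LPS_T and 0.143 in NOR_T). The scarce gene (evm.TU.scaffold60199.9, scaffold60199, positions 255633 to 262982, plus strand) had 0.0938, 0 and 0.298 CPM in LPS_T, 6.233, 7.122 and 7.156 CPM in NOR_T, and 0, 0.626 and 0.470 CPM in PBS. It stood above 6 CPM in every NOR_T library and at most at 0.626 CPM elsewhere. The LPS_T libraries and PBS 1 lay near or under the counting floor of 3 fragments. PBS 2 and PBS 3 lay above their floors of 0.289 and 0.257 CPM. The genes on each side of it, looked up after this was seen, did not share the pattern: the transcription intermediary factor 1-alpha-like gene had 4.08 to 5.00 CPM in NOR_T against 3.11 to 8.78 in PBS, and the nicotinamidase-like gene 1.43 to 1.59 CPM in NOR_T against 1.75 to 3.30 in PBS.

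**Figure D4:**
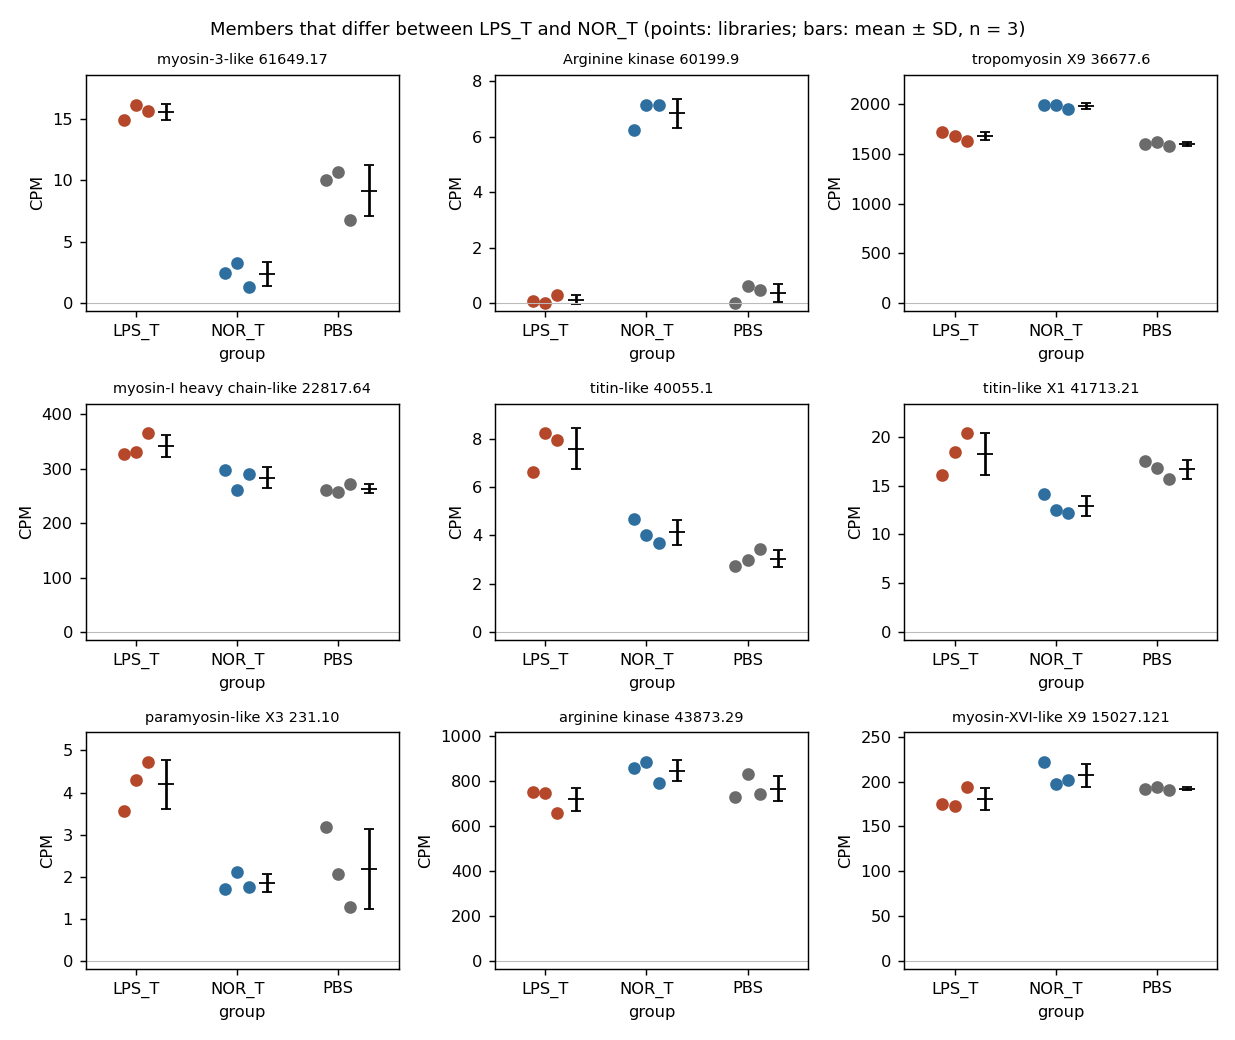
Each panel is 1 of the 9 members that passed in LPS_T against NOR_T, with CPM on the y axis and 1 point per library in LPS_T, NOR_T and PBS; bars are mean ± SD (n = 3 each). Myosin-3-like runs LPS_T, PBS, NOR_T from high to low, and the arginine kinase on scaffold60199 is above 6 CPM in NOR_T libraries only.

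Tropomyosin isoform X9, with the values given above, was lower in LPS_T than in NOR_T by -0.24 (SE 0.05, adjusted p = 0.00296). The non-muscle heavy chain differed by -0.17 (SE 0.07, adjusted p = 0.0973), which became a call at -0.20 without PBS 1. Myosin-XVI-like isoform X9 (evm.TU.scaffold15027.121), the unconventional myosin with the highest level at 45.4 FPKM, had 175.1, 172.5 and 194.4 CPM in LPS_T against 221.6, 196.8 and 201.9 CPM in NOR_T, while PBS had 192.2, 194.2 and 190.2 CPM. LPS_T lay below NOR_T, by -0.19 (SE 0.06, adjusted p = 0.0376), a call lost without LPS_T 1 (-0.17), LPS_T 2 (-0.16) or NOR_T 1 (-0.14). Myosin-I heavy chain-like (evm.TU.scaffold22817.64) had 327.3, 331.5 and 365 CPM in LPS_T against 297.5, 261.1 and 290.8 CPM in NOR_T, while PBS had 261.5, 256.7 and 272 CPM. It was higher in LPS_T than in NOR_T by 0.27 (SE 0.06, adjusted p = 0.00439) and than in PBS by 0.37 (SE 0.06, adjusted p = 0.000223), whereas NOR_T overlapped PBS (0.10, adjusted p = 0.249).

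Among titins, evm.TU.scaffold40055.1 had 6.613, 8.226 and 7.952 CPM in LPS_T against 4.681, 4.016 and 3.673 CPM in NOR_T, while PBS had 2.74, 2.962 and 3.421 CPM. The groups were fully apart. LPS_T was higher than NOR_T by 0.88 (SE 0.21, adjusted p = 0.00514) and than PBS by 1.31 (SE 0.21, adjusted p = 0.000179), and NOR_T against PBS did not pass (0.43, adjusted p = 0.162). Titin-like isoform X1 on scaffold41713 (evm.TU.scaffold41713.21) had 16.04, 18.41 and 20.35 CPM in LPS_T against 14.09, 12.52 and 12.18 CPM in NOR_T, while PBS had 17.56, 16.76 and 15.65 CPM. NOR_T was the lowest group, and LPS_T exceeded it by 0.50 (SE 0.13, adjusted p = 0.00954), a call lost without LPS_T 3 (0.40) or NOR_T 3 (0.43).

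Outside the rule, actins and actin regulators, 90 tested, were higher in 37 and lower in 9 in LPS_T, and higher in 25 and lower in 9 in NOR_T, with medians of 0.16 in both. Between the exosome groups, 7 were higher and 6 lower in LPS_T. Of all tested genes, 33% were called in LPS_T against PBS, 24.9% in NOR_T against PBS and 21.5% in LPS_T against NOR_T. Their medians were 0.027, -0.0021 and -0.0047. The muscle and nerve lists below have the same background. Actin-2 (evm.TU.scaffold14907.6), a filament-forming actin by its name, averaged 147 ± 8.07 CPM in LPS_T and 148 ± 9.26 in NOR_T, against 59.6 ± 9.70 in PBS (SD, n = 3 each), rises of 1.31 (adjusted p = 3.46e-08) and 1.32 (adjusted p = 9.56e-08). Profilin-like (evm.TU.scaffold41425.24), which feeds actin monomers to growing filaments, averaged 287 ± 9.32 CPM in LPS_T and 264 ± 9.25 in NOR_T, against 140 ± 7.86 in PBS (SD, n = 3 each), rises of 1.04 (adjusted p = 1.54e-09) and 0.92 (adjusted p = 2.12e-08). Between the exosome groups, cytoplasmic actin 1-like (evm.TU.scaffold63197.2) was higher in LPS_T by 1.64 (adjusted p = 6.38e-08) and the filament bundler fascin-like (evm.TU.scaffold26077.37) by 2.01 (adjusted p = 1.96e-05). Of 21 tested muscle proteins outside the rule, 3 rose and 3 fell in LPS_T, and 1 rose and 1 fell in NOR_T; 2 were higher and 1 lower in LPS_T than in NOR_T. Zasp (evm.TU.scaffold64013.17), a Z-disc protein in insects, rose by 0.70 in LPS_T (adjusted p = 0.000485), and PDZ and LIM domain protein 1-like (evm.TU.scaffold58153.30) changed by -0.26 in LPS_T (adjusted p = 0.00235) and by -0.54 in NOR_T (adjusted p = 5.5e-06). Of 13 tested nerve-list genes 2 rose and 3 fell in LPS_T, and 4 rose and 2 fell in NOR_T, and 2 were higher and 2 lower in LPS_T than in NOR_T. The list summed to 4275 to 4659 CPM in LPS_T, 2856 to 3064 in NOR_T and 2597 to 2765 in PBS. That order was set by a neuropeptide S receptor-like gene (evm.TU.scaffold9805.18), with a mean of 3103 CPM in LPS_T and 1193 in NOR_T, against 920 in PBS, while the other 133 genes summed to 1326 to 1433 CPM in LPS_T and 1708 to 1816 in NOR_T, against 1669 to 1846 in PBS.

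The members lie on 74 scaffolds, and 32 share a scaffold with another member. In 13 pairs no other gene of the table lies between the 2 members. Of the 92, 62 carry a GO term and 10 a KEGG term; myosin complex was given to 20 members, of 26 genes in the whole table, and sarcomere organization to 8, of 30. The 39 untested members included 14 class II heavy chains, 14 titins, 9 unconventional myosins and 2 kinases. With no filter on low values, 4 of these 39 passed in LPS_T against PBS, 7 in NOR_T against PBS and 3 in LPS_T against NOR_T, where 4.02%, 5.01% and 4.6% of all genes under the filter passed in those comparisons. Both counts against PBS include evm.TU.scaffold59337.4, whose high PBS mean is that of PBS 1.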

How the data were processed

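Per the labels' protocols, hemocyte poly(A) RNA was sequenced paired-end with a TruSeq kit. Whether the libraries kept strand was not checked, so overlapping and antisense genes may not have been told apart. The submitters' processing notes name HISAT, StringTie and edgeR without versions; the genome build is not given in the sources used here. Per the file headers, the deposited table gives an estimated count and an FPKM (scaled by the authors to gene length and depth) for each gene and library. These expected counts, as deposited, were rounded to whole numbers.

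Members and lists were chosen with earlier results of these data known. Classes and lists were matched to gene descriptions. With R 4.3.3 and edgeR 4.0.16, 9 libraries went into 1 quasi-likelihood fit with TMM scaling and 1 mean per title group. Genes whose FPKM reached 1 in 3 or more libraries (11678 of 21617) were tested, and p-values were adjusted over them by Benjamini-Hochberg, with a threshold of 0.05. SE is the log2 change divided by the square root of F. Named with all values are the top member of each class, the 8 smallest adjusted p-values among called members per comparison, and every troponin, tropomyosin, paramyosin, twitchin, titin and arginine kinase with a group mean FPKM of at least 1; from each list, the 2 smallest adjusted p-values per comparison were candidates, and lists of other cell types are given by counts. 1 gene list is not reported here. Other named members are said to be chosen later.

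Alternatives were DESeq2 size factors, library size only, no filter, edgeR's filterByExpr, DESeq2 1.42.0, limma 3.58.1 on the authors' unscaled log2(FPKM + 1) and log2(FPKM + 0.1), a replicate block, and each library left out. Same-numbered libraries did not deviate together (correlations -0.025 to 0.080). No libraries held identical values. For pairs within groups, the median gene-wise chi-square, a squared measure, was 1.94 to 2.61 times that of sampling noise at 4 counts per fragment. Figures were drawn with matplotlib 3.10.9. Floors cover counting error only. The fits were tested on simulated data.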

Additional observations from a re-analysis of the deposited data

Results flagged for a closer look

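For 9 members the change against PBS differed between the exosome groups by the test of LPS_T against NOR_T in edgeR (adjusted p under 0.05); the test of that difference equals the test of the 2 changes against each other, because both use the same PBS libraries. LPS_T was higher than NOR_T in log2 terms for myosin-3-like (evm.TU.scaffold61649.17) by 2.73, paramyosin-like isoform X3 (evm.TU.scaffold231.10) by 1.18, titin-like evm.TU.scaffold40055.1 by 0.88, titin-like isoform X1 (evm.TU.scaffold41713.21) by 0.50 and myosin-I heavy chain-like (evm.TU.scaffold22817.64) by 0.27. The value was below 0, with NOR_T the higher group, for arginine kinase evm.TU.scaffold60199.9 at -5.66, tropomyosin isoform X9 (evm.TU.scaffold36677.6) at -0.24, arginine kinase evm.TU.scaffold43873.29 at -0.23 and myosin-XVI-like isoform X9 (evm.TU.scaffold15027.121) at -0.19. The part of the ciliated epithelium and gonad markers, which also differed between these groups, was not tested. Paramyosin-like isoform X3 passed the filter only through LPS_T, and arginine kinase evm.TU.scaffold60199.9 only through NOR_T, so these values had to differ and are descriptions; for the arginine kinase LPS_T lay at or near the counting floor, and the size of its value depends on how near-zero libraries are fitted.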

How the results depend on the processing

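Counts of called members, in the order LPS_T against PBS, NOR_T against PBS, mean against PBS and LPS_T against NOR_T, were 11, 6, 12 and 4 with limma on log2(FPKM + 1), and 10, 5, 10 and 2 with limma on log2(FPKM + 0.1). With these unscaled FPKM the median of all tested genes in LPS_T against PBS was 0.17 and 0.21, against 0.027 in the edgeR fit with TMM. With library size only that median was 0.13, and LPS_T against NOR_T had 5 calls. Leaving out 1 library gave 13 to 20, 12 to 15, 15 to 21 and 6 to 11 calls. With no filter the counts were 26, 21, 28 and 13 over 92 members. With filterByExpr they were 21, 19, 21 and 13 over 81 members. The replicate block gave 18, 13, 21 and 9 calls, and DESeq2 19, 17, 20 and 10; same-numbered libraries share only a number, so calls lost under the block are not read as weaker effects. Of 47 called pairs of named member and comparison, 22 kept call and direction under all 17 alternatives, and 0 turned direction. Among the other 85 pairs, 13 were called under at least 1 alternative, and 36 turned direction at least once; 0 of those 96 turned values passed the threshold, and the cause was not tested. Depth limits the members near 1 FPKM. The turned log2 values follow by setting.

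With DESeq2 size factors it was myosin-XVI-like -0.0001 in the mean of both against PBS. With filterByExpr it was titin-like evm.TU.scaffold4067.16 -0.003 in LPS_T against NOR_T. With the replicate block it was titin-like evm.TU.scaffold59337.5 0.056 in LPS_T against NOR_T. With library size only it was myosin-XVI-like 0.023, twitchin X13 0.082, arginine kinase 0.011, troponin T 0.038, troponin I 0.082, essential light chain 0.0054 in LPS_T against PBS. That setting gave titin-like evm.TU.scaffold49941.2 0.046, essential light chain 0.031 in NOR_T against PBS. It also gave troponin T 0.076, essential light chain 0.018 in the mean of both against PBS. It also gave titin-like evm.TU.scaffold59337.5 0.017 in LPS_T against NOR_T. With limma on log2(FPKM + 1) it was myosin-XVI-like 0.086, twitchin X13 0.14, arginine kinase 0.087, troponin T 0.11, troponin I 0.15, essential light chain 0.073 in LPS_T against PBS. That setting gave titin-like evm.TU.scaffold49941.2 0.10, essential light chain 0.10 in NOR_T against PBS. It also gave twitchin X13 0.057, titin-like evm.TU.scaffold41713.21 0.039, troponin T 0.15, essential light chain 0.087 in the mean of both against PBS. With limma on log2(FPKM + 0.1) it was myosin-XVI-like 0.088, twitchin X13 0.16, arginine kinase 0.087, troponin T 0.11, troponin I 0.15, essential light chain 0.073 in LPS_T against PBS. That setting gave paramyosin X3 0.0057, titin-like evm.TU.scaffold49941.2 0.11, essential light chain 0.10 in NOR_T against PBS. It also gave twitchin X13 0.066, titin-like evm.TU.scaffold41713.21 0.047, troponin T 0.15, essential light chain 0.087 in the mean of both against PBS. With no filter it was titin-like evm.TU.scaffold4067.16 -0.005, paramyosin X1 -0.0007 in LPS_T against NOR_T. With 1 library left out, LPS_T against PBS spanned -0.083 to 0.022 for twitchin X13, -0.0028 to 0.092 for tropomyosin, -0.048 to 0.12 for troponin C, -0.086 to 0.47 for titin-like evm.TU.scaffold51977.4, -0.015 to 1.29 for titin-like evm.TU.scaffold51977.5, -0.12 to 0.0037 for troponin T, -0.087 to 0.042 for troponin I. With 1 library left out, NOR_T against PBS spanned -0.034 to 0.03 for titin-like evm.TU.scaffold11121.12, -0.48 to 0.15 for paramyosin X3, -0.12 to 0.044 for titin-like evm.TU.scaffold49941.2, -0.18 to 0.82 for titin-like evm.TU.scaffold51977.4, -0.044 to 1.26 for titin-like evm.TU.scaffold51977.5, -0.0071 to 0.11 for troponin T, -0.086 to 0.21 for twitchin. With 1 library left out, the mean of both against PBS spanned -0.018 to 0.025 for myosin-XVI-like, -0.021 to 0.085 for arginine kinase, -0.029 to 0.12 for titin-like evm.TU.scaffold49941.2, -0.023 to 0.65 for titin-like evm.TU.scaffold51977.4, -0.029 to 1.28 for titin-like evm.TU.scaffold51977.5, -0.058 to 0.055 for troponin T, -0.031 to 0.091 for troponin I. With 1 library left out, LPS_T against NOR_T spanned -0.19 to 0.13 for titin-like evm.TU.scaffold28031.10, -0.13 to 0.15 for titin-like evm.TU.scaffold4067.16, -0.14 to 0.015 for troponin C, -0.59 to 0.31 for titin-like evm.TU.scaffold51977.4, -0.15 to 0.22 for titin-like evm.TU.scaffold51977.5, -0.0062 to 0.051 for calponin, -0.42 to 0.24 for titin-like evm.TU.scaffold59337.5, -0.036 to 0.075 for paramyosin X1.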
